A study of Mus musculus with 8 samples.

Results

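The nuclear arm of Wnt signalling was followed through 9 genes: the DNA-binding factors Lef1, Tcf7, Tcf7l1 and Tcf7l2, the coactivator beta-catenin (Ctnnb1), and the feedback genes Axin2, Nkd1, Nkd2 and Apcdd1. They were chosen by gene name, and each had 1 of the 22053 gene rows of the deposited table. The libraries were bulk RNA-seq of sorted primary mouse skeletal cells. Cells of 4 libraries were taken from the spine and are called candidate vertebral skeletal stem cells (vSSC). Those of the other 4 libraries were taken from the femur and tibia and are called long bone skeletal stem cells (lbSSC). All mice were wild type (WT) at postnatal day 10, and each site had 2 male libraries (replicates 1 and 2) and 2 female libraries (replicates 3 and 4). Both groups were sorted with 1 gate, CD31-TER119-CD45-Thy-6C3-CD200+CD105-, so they share a surface phenotype and differ in the bone they came from. The number of animals behind a library is not given, so a p-value here reflects only how far these libraries spread.

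When a Wnt protein binds a Frizzled receptor and an Lrp co-receptor, the destruction complex stops degrading beta-catenin, which then enters the nucleus and joins Tcf and Lef proteins on DNA. Without beta-catenin the same factors sit with Groucho corepressors and hold target genes down. Axin2, Nkd1, Nkd2 and Apcdd1 are switched on by the pathway in many tissues and damp it again at successive steps. In the skeleton the pathway directs progenitors towards the osteoblast fate and away from cartilage. Beta-catenin is regulated mainly through the stability of its protein, which RNA levels do not show.

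Expression was given in FPKM, fragments scaled by transcript length and by the mapped fragments of the library, which allows levels of different genes to be compared per length. The transcripts were those of a cartilage-rich population at both sites: 6 chondrocyte markers summed to 12970 to 21410 FPKM in vSSC and 14800 to 24360 FPKM in lbSSC. Col2a1 carried most of that sum, and 2 of the markers were higher in vSSC without overlap: Matn3 had 1391 to 1605 FPKM in vSSC and 449.1 to 644.8 FPKM in lbSSC, and Hapln1 1696 to 2087 FPKM in vSSC and 888.1 to 1132 FPKM in lbSSC. Cd200, which the gate selects for, had 85.1 to 133.1 FPKM in vSSC and 84.2 to 142.7 FPKM in lbSSC, while Eng, Pecam1, Ptprc and Thy1, which it selects against, stayed below 1.2 FPKM in every library. Enpep, which encodes the 6C3 antigen and is also selected against, had 0.111 to 0.484 FPKM in vSSC and 0.709 to 1.76 FPKM in lbSSC, without overlap. Ptprc, which encodes CD45, was separate in the other direction, with 0.331 to 0.949 FPKM in vSSC and 0.025 to 0.069 FPKM in lbSSC. Between 10337 and 10578 genes reached 1 FPKM in vSSC libraries and between 10644 and 10753 in lbSSC libraries. No read totals are used here, and the counting error of a single FPKM is not known. The vSSC replicates 1 and 3 stood apart from the other vSSC libraries: ribosomal protein genes took 21.2% and 21.4% of their FPKM, against 19.5% and 18.3% in vSSC replicates 2 and 4 and 15.7% to 18.4% in lbSSC. Their Col2a1, the main cartilage collagen, was 7443 and 7528 FPKM, against 13430 and 15070 FPKM in vSSC replicates 2 and 4.

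Tcf7 and Apcdd1 were lower in vSSC than in lbSSC, and they were the members that passed the test. Each difference is the mean log2(FPKM + 1) of vSSC less that of lbSSC, given with its standard error (SE); on this scale changes of weakly expressed genes come out too small. All adjusted p-values are limma's with Benjamini-Hochberg adjustment over the 10729 genes with at least 1 FPKM in at least 4 libraries. Of the 9 members, 8 entered the test and Nkd2 did not. Of these 8, 0 were called higher in vSSC and 2 lower (5 had an unadjusted p under 0.05), where 23.5% of all tested genes were called, 14.3% higher and 9.17% lower. Of all calls, 60.9% were thus higher in vSSC, and 42.4% were when each library was rescaled to one sum. For 3 members the ranges of both groups were separate, Tcf7, Ctnnb1 and Apcdd1, as for 25.8% of all tested genes. The median difference of all tested genes was 0.08. Bulk RNA cannot tell fewer expressing cells from less RNA per cell.

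**Figure D1:**
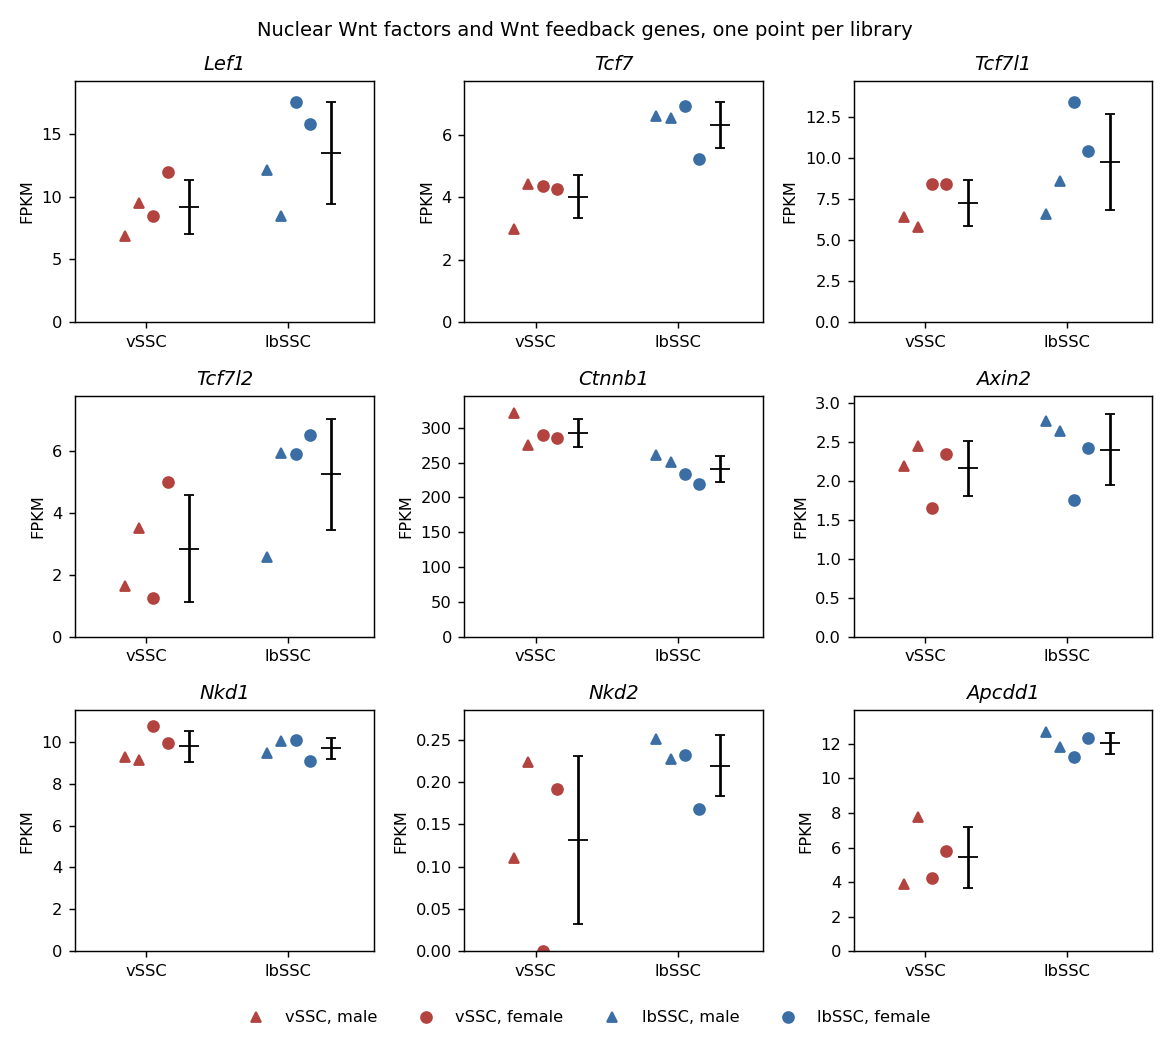
FPKM of the 9 genes in each library, vSSC left (red) and lbSSC right (blue), triangles male and circles female, with the group mean and SD (n = 4) as a bar beside the points. The groups are separate for Tcf7, Ctnnb1 and Apcdd1, and Tcf7l2 in vSSC spreads from 1.26 to 4.99 FPKM.

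All of the DNA-binding factors had a lower mean in vSSC, and Tcf7 was the one called. Tcf7 encodes TCF-1 and is best known from T cell development. It had 2.98, 4.43, 4.37 and 4.25 FPKM in vSSC replicates 1 to 4, against 6.60, 6.52, 6.90 and 5.22 FPKM in lbSSC replicates 1 to 4. Every vSSC library lay below every lbSSC library, with the smallest gap between vSSC replicate 2 and lbSSC replicate 4. The means were 4.01 ± 0.688 FPKM in vSSC and 6.31 ± 0.747 FPKM in lbSSC (SD, n = 4 each), and the log2 difference was -0.55 ± 0.15 (SE, limma adjusted p = 0.0225). The male libraries alone differed by -0.70 and the female libraries alone by -0.40. The call was lost in 5 of 22 alternatives, among them leaving out vSSC replicate 1 (-0.44, adjusted p = 0.0514), lbSSC replicate 2 (-0.53, adjusted p = 0.0506) or lbSSC replicate 3 (-0.51, adjusted p = 0.0696), and the difference stayed negative in all 22.

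T cell transcripts were near 0 in both groups: Cd3e, Cd3g and Cd8a were listed at 0 in all 8 libraries, and 7 T cell markers summed to 0.393 to 1.56 FPKM in vSSC and 0.557 to 0.833 FPKM in lbSSC. B cell markers were higher in vSSC, with sums of 8.17 to 12.0 FPKM in vSSC and 0.637 to 4.98 FPKM in lbSSC, opposite in direction to Tcf7. The Tcf7 gene lies on chromosome 11 at 52252371 to 52283014 of GRCm38, on the minus strand, and its exons overlap no other annotated gene.

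Lef1, the factor that with Tcf7 forms the branch of the family that mostly activates targets, had 6.85, 9.45, 8.42 and 12.0 FPKM in vSSC replicates 1 to 4, against 12.1, 8.44, 17.5 and 15.8 FPKM in lbSSC replicates 1 to 4. The groups overlapped: lbSSC replicate 2 was lower than vSSC replicates 2 and 4. The means were 9.17 ± 2.15 FPKM in vSSC and 13.5 ± 4.04 FPKM in lbSSC (SD, n = 4 each), a log2 difference of -0.49 ± 0.22 that missed the threshold (SE, limma adjusted p = 0.121, unadjusted 95% interval -0.96 to -0.01). Without lbSSC replicate 2 it was -0.68 with an adjusted p of 0.0311. Lef1 lies on chromosome 3 at 131110471 to 131224356, plus strand, and its exons overlap an antisense gene model, Gm43352. The library kit does not mark strand, so fragments of this pair cannot be told apart.

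Tcf7l1, formerly Tcf3, acts mostly as a repressor of Wnt targets in embryonic stem cells and skin. It had 6.38, 5.76, 8.40 and 8.43 FPKM in vSSC replicates 1 to 4, against 6.56, 8.61, 13.4 and 10.4 FPKM in lbSSC replicates 1 to 4. The groups overlapped through the male lbSSC replicate 1. The means were 7.24 ± 1.38 FPKM in vSSC and 9.76 ± 2.91 FPKM in lbSSC (SD, n = 4 each), a log2 difference of -0.36 ± 0.20 that did not pass (SE, limma adjusted p = 0.205, unadjusted 95% interval -0.79 to 0.08). The gene lies on chromosome 6 at 72626378 to 72789254, minus strand, and its exons overlap an antisense gene model, Gm15401.

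Tcf7l2, formerly Tcf4, is the factor that maintains stem cells of the gut epithelium, and it was the most uneven of the 8 tested members. It had 1.62, 3.49, 1.26 and 4.99 FPKM in vSSC replicates 1 to 4, against 2.58, 5.94, 5.90 and 6.52 FPKM in lbSSC replicates 1 to 4. The vSSC replicates 1 and 3 and lbSSC replicate 1 were low, and the vSSC replicates 2 and 4 reached above the lowest lbSSC library. The SD was 61.1% of the mean in vSSC and 34.2% in lbSSC. The log2 difference was -0.75 ± 0.32, larger than that of Tcf7 but with an SE more than 2 times as large (limma adjusted p = 0.107, unadjusted 95% interval -1.46 to -0.05). It was -1.01 without vSSC replicate 4 (adjusted p = 0.0295), -1.002 without lbSSC replicate 1 (adjusted p = 0.0367) and -0.21 without both vSSC replicates 1 and 3 (adjusted p = 0.699). The gene lies on chromosome 19 at 55741810 to 55933654, plus strand.

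Summed over the family, Tcf and Lef transcripts came to 17.8, 23.1, 22.5 and 29.7 FPKM in vSSC replicates 1 to 4, against 27.9, 29.5, 43.8 and 38.0 FPKM in lbSSC replicates 1 to 4. Only vSSC replicate 4 reached into the lbSSC range. The shares of the 4 factors overlapped between the sites: Lef1 was 37.5% to 40.8% of the sum in vSSC and 28.6% to 43.5% in lbSSC, and Tcf7l1 24.9% to 37.4% in vSSC and 23.5% to 30.7% in lbSSC. Tcf7 was 14.4% to 19.5% in vSSC and 13.7% to 23.7% in lbSSC. Tcf7l2 ranged widest in relative terms, from 5.60% to 16.8% in vSSC and from 9.27% to 20.1% in lbSSC.

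**Figure D2:**
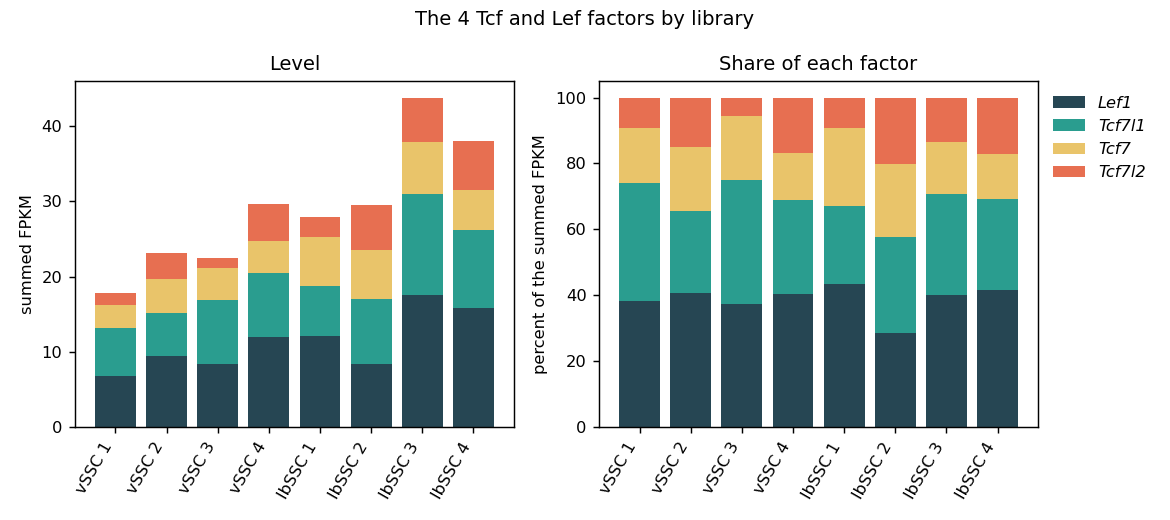
Left, FPKM of Lef1, Tcf7l1, Tcf7 and Tcf7l2 stacked for each library (vSSC replicates 1 to 4, then lbSSC replicates 1 to 4); right, the same as a percent of the library's sum. The stacks run from 17.8 to 29.7 FPKM in vSSC and from 27.9 to 43.8 FPKM in lbSSC, while Lef1 and Tcf7l1 together hold most of each stack.

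Ctnnb1, which encodes beta-catenin and serves both as coactivator of the Tcf and Lef factors and as a link of cadherins to the cytoskeleton, had the highest level of the 9 genes by a wide margin. It had 320.8, 274.6, 289.3 and 285.6 FPKM in vSSC replicates 1 to 4, against 260.4, 250.5, 233.2 and 219.0 FPKM in lbSSC replicates 1 to 4. All vSSC libraries were above all lbSSC libraries, the opposite order to Tcf7. The means were 292.6 ± 19.8 FPKM in vSSC and 240.8 ± 18.4 FPKM in lbSSC (SD, n = 4 each), a log2 difference of 0.28 ± 0.10 that missed the threshold (SE, limma adjusted p = 0.0628, unadjusted 95% interval 0.06 to 0.50). It was 0.08 after quantile normalization, adjusted p = 0.453, and 0.25 with an adjusted p of 0.0317 after a trend on transcript length was removed. The gene lies on chromosome 9 at 120929216 to 120960507, plus strand, and its exons overlap Mir7090 and the minus-strand gene Ulk4, which had 0.242 to 0.570 FPKM in vSSC and 0.102 to 0.379 FPKM in lbSSC.

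Of the feedback genes, Apcdd1 fell and Axin2 and Nkd1 did not pass the test in either direction. Apcdd1 encodes a membrane glycoprotein that binds Wnt and its co-receptor at the cell surface and inhibits signalling, and mutations in the human gene cause hereditary hair loss. It had 3.89, 7.79, 4.25 and 5.79 FPKM in vSSC replicates 1 to 4, against 12.7, 11.8, 11.3 and 12.4 FPKM in lbSSC replicates 1 to 4. The groups were far apart: the highest vSSC library, replicate 2, was below the lowest lbSSC library, replicate 3. The means were 5.43 ± 1.77 FPKM in vSSC and 12.0 ± 0.617 FPKM in lbSSC (SD, n = 4 each), and the log2 difference was -1.06 ± 0.18 (SE, limma adjusted p = 0.00168). It was -1.01 among male and -1.10 among female libraries. Without both vSSC replicates 1 and 3 it was -0.75 (adjusted p = 0.0105). The SD was 32.7% of the mean in vSSC and 5.13% in lbSSC.

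Axin2, a scaffold of the destruction complex and the most widely used readout of Wnt activity in tissues, had 2.18, 2.44, 1.66 and 2.34 FPKM in vSSC replicates 1 to 4, against 2.77, 2.64, 1.75 and 2.42 FPKM in lbSSC replicates 1 to 4. The ranges overlapped for the most part, and the female replicate 3 was the lowest library at each site. The log2 difference was -0.10 ± 0.16 (SE, limma adjusted p = 0.668), and its unadjusted 95% interval of -0.45 to 0.25 leaves room for a difference in either direction. Its exons, on chromosome 11 between 108920349 and 108950783 on the plus strand, overlap an antisense gene model, Gm11670.

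Nkd1, a homologue of fly naked cuticle that binds Dishevelled and limits signalling, had 9.29, 9.15, 10.7 and 9.92 FPKM in vSSC replicates 1 to 4, against 9.48, 10.1, 10.1 and 9.07 FPKM in lbSSC replicates 1 to 4. The groups lay on top of each other and the spread was small, with an SD of 7.43% of the mean in vSSC and 5.04% in lbSSC. The log2 difference was 0.01 ± 0.11 (SE, limma adjusted p = 0.948), with an unadjusted 95% interval of -0.23 to 0.26. Its sign turned in 8 of 22 alternatives, with values from -0.12 to 0.04. Nkd2, its paralogue, was at the edge of detection with 0.111, 0.223, 0 and 0.192 FPKM in vSSC replicates 1 to 4, against 0.251, 0.227, 0.232 and 0.168 FPKM in lbSSC replicates 1 to 4. No library reached 1 FPKM, so Nkd2 was not tested. Nkd1 lies on chromosome 8 at 88521354 to 88594884 on the plus strand and Nkd2 on chromosome 13 at 73818534 to 73847631 on the minus strand, and the exons of neither overlap another annotated gene.

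**Figure D3:**
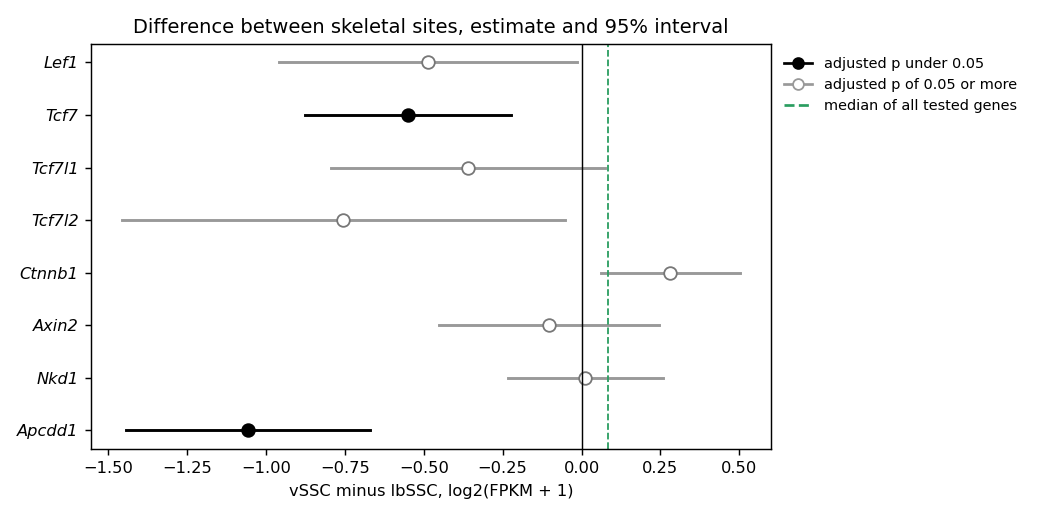
Site difference (vSSC minus lbSSC, log2(FPKM + 1)) of the 8 tested members, with unadjusted 95% intervals; filled symbols have a limma adjusted p under 0.05, the dashed line is the median of all tested genes (0.08). Apcdd1 (-1.06) and Tcf7 (-0.55) are filled, and Ctnnb1 (0.28) lies to the right of 0.

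The ratio of Apcdd1 to Nkd1 differed between the sites, which restates the difference of Apcdd1, as Nkd1 hardly differed. Apcdd1 relative to Nkd1, as a ratio of FPKM, was 0.419, 0.851, 0.396 and 0.584 in vSSC replicates 1 to 4, against 1.34, 1.18, 1.12 and 1.36 in lbSSC replicates 1 to 4. Apcdd1 was thus below Nkd1 in every vSSC library and above it in every lbSSC library. Axin2 relative to Nkd1 was 0.154 to 0.267 in vSSC and 0.173 to 0.292 in lbSSC, ranges that overlapped. A ratio within a library does not depend on a linear scaling of that library, and no p is given for it, as the genes were paired after their values were known.

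By mean level, the order in vSSC was Ctnnb1, Nkd1, Lef1, Tcf7l1, Apcdd1, Tcf7, Tcf7l2, Axin2 and Nkd2, and in lbSSC it was Ctnnb1, Lef1, Apcdd1, Tcf7l1, Nkd1, Tcf7, Tcf7l2, Axin2 and Nkd2. Ctnnb1 at the top and Nkd2 at the bottom were separate from their neighbours at both sites. In lbSSC, Nkd1 and Tcf7 were also separate. All other neighbours overlapped between libraries.

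A single form of the base sequence that Tcf and Lef factors bind was looked for in 250 bases before annotated starts. It was chosen because some of these genes are themselves Wnt targets in other tissues. Other forms, such as those with T in place of the last A of CTTTGA, were not searched. The core CTTTGA, or TCAAAG on the other strand, was found in 13.8% of 32851 RefSeq windows of this length. Windows of 8 of the 9 members, all but Apcdd1, were read from the RefSeq table (GRCm38.p6), and 1 of their 14 windows held the core, at a Lef1 start inside the gene that overlaps no annotated exon. It is shown with the window of Axin2, the standard Wnt readout, which held none. The Lef1 window is chr3:131156044-131156293 and the Axin2 window is chr11:108920099-108920348, both on the plus strand, printed 5′ to 3′ with the core in capitals.
Lef1: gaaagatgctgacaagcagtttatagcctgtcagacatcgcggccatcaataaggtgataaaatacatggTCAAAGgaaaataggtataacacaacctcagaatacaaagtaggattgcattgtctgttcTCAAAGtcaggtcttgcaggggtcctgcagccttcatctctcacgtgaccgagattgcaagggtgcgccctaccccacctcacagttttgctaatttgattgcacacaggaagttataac
Axin2: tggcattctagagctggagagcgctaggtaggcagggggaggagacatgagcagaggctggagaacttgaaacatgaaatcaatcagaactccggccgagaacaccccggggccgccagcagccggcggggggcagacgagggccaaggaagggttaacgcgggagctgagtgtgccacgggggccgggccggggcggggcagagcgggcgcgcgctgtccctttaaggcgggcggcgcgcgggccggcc
The Lef1 copies begin 180 and 120 bases before that start, both on the minus strand. A match is a string of letters and no evidence of binding, and no match says nothing of sites elsewhere or of other forms in the same windows. The FPKM of Lef1 sums transcripts from all of its starts, so the use of this one was not measured.

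Sex was examined because each site had 2 male and 2 female libraries. With site in the model, 0 of 8 members passed limma's test for male minus female, where 0.0466% of all tested genes were called. At an unadjusted p under 0.05 there were 2 members and 892 of the 10729 genes. The smallest unadjusted p among the members was that of Tcf7l1, 0.00367 (adjusted p = 0.487), with a log2 difference of -0.50 ± 0.14 (SE). Both male vSSC libraries were below both female vSSC libraries, and the same held in lbSSC. Lef1 followed with -0.48 ± 0.17 (SE, limma adjusted p = 0.566). No member and none of the 10729 genes passed the test for a site difference that depends on sex (0 called, 0% of genes; 405 genes and no member at an unadjusted p under 0.05).

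Likeness of profiles was measured as the root mean square difference over the 8 libraries after each gene was centred on its mean of log2(FPKM + 1). Erap1 was closest to Tcf7 at 0.05, followed by Speg at 0.09 and Arhgef19 at 0.10. The median over all tested genes was 0.43. Erap1 averaged 4.31 FPKM in vSSC and 6.69 FPKM in lbSSC. For Apcdd1 the closest were Cyp2d22 at 0.13, Pygm at 0.14 and Thbd at 0.15, with a median of 0.66 over all tested genes. Thbd averaged 3.10 FPKM in vSSC and 7.65 FPKM in lbSSC. Cyp2d22 averaged 0.355 FPKM in vSSC and 1.42 FPKM in lbSSC, and Pygm 0.688 FPKM in vSSC and 2.73 FPKM in lbSSC. The vSSC means of Cyp2d22 and Pygm were below the 1 FPKM of the filter. These 2 genes may thus have entered the test through lbSSC, and their likeness to Apcdd1 is no support.

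The ribosomal protein share moved with several members. The libraries with the highest shares, vSSC replicates 3 and 1, had the lowest Tcf7l2, and lbSSC replicate 1, which had the highest share of its group at 18.4%, had the lowest Tcf7l2 in lbSSC. With the share as a covariate, the site difference was 0.19 for Lef1 (adjusted p = 0.786), 0.05 for Tcf7l1 (adjusted p = 0.959) and 0.36 for Tcf7l2 (adjusted p = 0.643), all opposite in sign to the fit without it. It was -0.51 for Tcf7 (adjusted p = 0.303) and -0.78 for Apcdd1 (adjusted p = 0.137), so the sign was kept and both calls were lost. The share averaged 20.1% in vSSC and 16.9% in lbSSC, so that fit separates site from share only in part, and it called 623 genes in all against 2518 without the covariate.

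Other cell type markers also differed in sum between the sites. Neutrophil markers summed to 281.5 to 439.0 FPKM in vSSC and 24.5 to 111.9 FPKM in lbSSC, and 3 Schwann cell and neuron markers to 7.58 to 18.99 FPKM in vSSC and 0.755 to 1.07 FPKM in lbSSC. Mostly lower in vSSC, with ranges that just overlapped, were 3 tendon markers, with 46.5 to 87.7 FPKM in vSSC and 87.3 to 121.7 FPKM in lbSSC. Tnmd made up most of that sum, with 35.35 to 71.2 FPKM in vSSC and 75.36 to 109.8 FPKM in lbSSC. Scx and Mkx were low and overlapped between the sites. Lower without overlap were 6 macrophage and osteoclast markers, with 56.3 to 78.5 FPKM in vSSC and 107.6 to 127.5 FPKM in lbSSC. Ctsk made up most of them, and Csf1r and Adgre1 stayed below 0.21 FPKM. Acp5 was also lower in vSSC, with 4.07 to 6.35 FPKM in vSSC and 6.89 to 8.42 FPKM in lbSSC. Ptprc of the same list went the other way without overlap, with 0.331 to 0.949 FPKM in vSSC and 0.025 to 0.069 FPKM in lbSSC. Cd68 overlapped between the sites, with 0.308 to 0.969 FPKM in vSSC and 0.047 to 0.705 FPKM in lbSSC. Erythroid markers overlapped at 3797 to 5348 FPKM in vSSC and 4240 to 8742 FPKM in lbSSC, as did 5 osteoblast markers at 411.6 to 543.4 FPKM in vSSC and 354.6 to 796.5 FPKM in lbSSC. Within the osteoblast list, Sp7 was higher in vSSC, with 41.46 to 49.05 FPKM in vSSC and 23.66 to 32.55 FPKM in lbSSC, and Bglap lower, with 33.61 to 105.4 FPKM in vSSC and 110.6 to 354.9 FPKM in lbSSC. Endothelial markers summed to less than 0.29 FPKM and muscle markers to less than 0.07 FPKM in every library, with Myod1 and Myf5 at 0. Their part in the differences of Tcf7 and Apcdd1 was not tested.

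**Figure D4:**
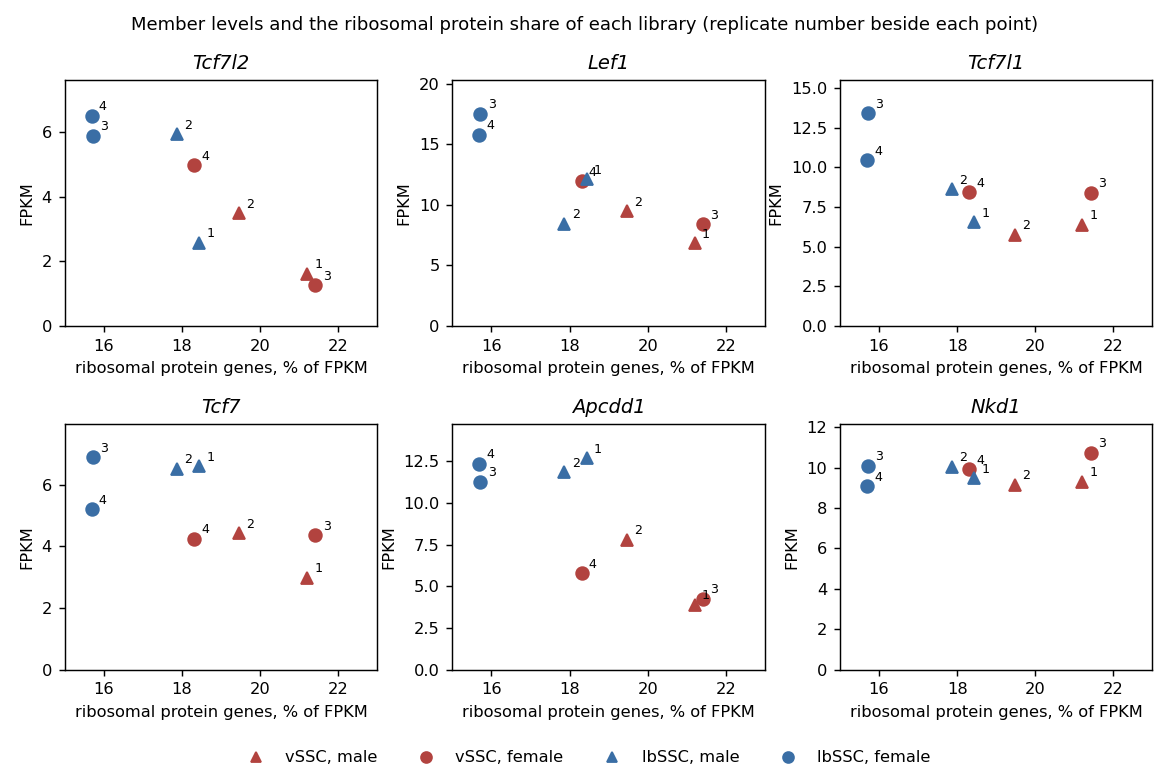
FPKM of 6 members against the percent of a library's FPKM in ribosomal protein genes, vSSC in red and lbSSC in blue, triangles male, circles female, numbers the replicate. Tcf7l2 is lowest in vSSC replicates 1 and 3, at shares of 21.2% and 21.4%, whereas Nkd1 stays between 9.07 and 10.7 FPKM over the whole range.

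The genes on either side of the nuclear factors were read from lists of the pathway. Values in brackets below are the log2 difference with its SE and limma's adjusted p. In the destruction complex, 8 of 12 genes were tested, none was called higher and 1 lower: the kinase Gsk3b, which marks beta-catenin for degradation, at 4.49 ± 0.669 FPKM in vSSC and 6.47 ± 0.536 FPKM in lbSSC (SD, n = 4 each; -0.45 ± 0.14, adjusted p = 0.0363), a call lost in 11 of 22 alternatives, among them leaving out any library except vSSC replicate 4. That is 12.5% of the 8, beside 9.17% of all tested genes called lower. The median difference of the 8 was -0.02. Of 7 tested genes of the Dishevelled relay, 1 was called, Dact1, which binds Dishevelled, with 8.06, 5.82, 6.73 and 8.13 FPKM in vSSC replicates 1 to 4, against 15.5, 17.7, 17.2 and 18.9 FPKM in lbSSC replicates 1 to 4 (-1.17 ± 0.13, adjusted p = 0.000115). Dact1 was called in all 22 alternatives. That 1 call is 14.3% of the 7, beside 23.5% of all tested genes called in either direction.

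Among the partners of the Tcf and Lef factors, 0 of 8 tested coactivators were called (1 at an unadjusted p under 0.05), with a median difference of -0.32, and 2 were called lower with the replicate number as a block. Of 13 tested corepressors and inhibitors, Tle1 and Hdac1 were called higher and Tle3 lower, 23.1% of the list beside 23.5% of all tested genes. Tle1 and Tle3 are Groucho proteins that bind Tcf and Lef factors directly, and they went opposite ways. Tle3 had 1.78, 1.85, 0.953 and 2.09 FPKM in vSSC replicates 1 to 4, against 5.52, 3.83, 6.37 and 6.95 FPKM in lbSSC replicates 1 to 4 (-1.32 ± 0.20, adjusted p = 0.000851). Tle1 averaged 15.3 ± 2.27 FPKM in vSSC and 9.11 ± 1.57 FPKM in lbSSC (SD, n = 4 each; 0.69 ± 0.15, adjusted p = 0.00773). Without both vSSC replicates 1 and 3, the list had 0 called higher and 1 lower, and with the ribosomal covariate it had 0 in either direction (Tle3 -0.83, adjusted p = 0.104; Tle1 0.37, adjusted p = 0.398).

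Of 21 other genes reported as Wnt targets elsewhere, 15 were tested, with 3 called higher and 6 lower in vSSC and a median difference of -0.17. That is 60% of the 15, beside 23.5% of all tested genes called, 14.3% higher and 9.17% lower. The cell cycle gene Ccnd1 had 46.8, 46.4, 46.3 and 53.2 FPKM in vSSC replicates 1 to 4, against 25.5, 23.2, 18.8 and 16.2 FPKM in lbSSC replicates 1 to 4 (1.18 ± 0.14, adjusted p = 0.00016). Notum, a secreted enzyme that inactivates Wnt proteins, averaged 77.6 ± 10.9 FPKM in vSSC and 35.6 ± 2.39 FPKM in lbSSC (SD, n = 4 each; 1.10 ± 0.12, adjusted p = 7.59e-05). The receptor gene Tnfrsf19 averaged 2.43 ± 0.733 FPKM in vSSC and 7.63 ± 1.03 FPKM in lbSSC (log2 difference -1.35 ± 0.18, adjusted p = 0.000345). The activin-binding gene Fst, 1 of the 6, had 0, 0.685, 0.285 and 0.552 FPKM in vSSC replicates 1 to 4, against 3.19, 3.46, 3.06 and 2.85 FPKM in lbSSC replicates 1 to 4. It entered the test through lbSSC alone, so it had to differ and its call is no support. Msx2, also 1 of the 6, passed the filter mainly through lbSSC. It had 0.738, 0.907, 1.03 and 0.526 FPKM in vSSC replicates 1 to 4, against 1.58, 2.40, 1.74 and 1.18 FPKM in lbSSC replicates 1 to 4. Its call is no support either, and both genes are still part of the 6 and of the 60%. The counts rested on single libraries: they were 2 higher and 2 lower without vSSC replicate 1, vSSC replicate 2, lbSSC replicate 1 or lbSSC replicate 3, and 2 and 3 without lbSSC replicate 2. They were 4 and 4 without vSSC replicate 4 or lbSSC replicate 4, and 2 and 2 with the ribosomal covariate.

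Cadherins compete with Tcf and Lef factors for beta-catenin. Of 5 tested adherens junction genes, 2 were called lower, Cdh11 with 4.40, 6.11, 5.81 and 4.67 FPKM in vSSC replicates 1 to 4, against 12.4, 12.8, 12.3 and 9.72 FPKM in lbSSC replicates 1 to 4 (-1.04 ± 0.14, adjusted p = 0.000435), and Cdh2 with 1.68 ± 0.426 FPKM in vSSC and 5.16 ± 1.48 FPKM in lbSSC (SD, n = 4 each; -1.18 ± 0.21, adjusted p = 0.00229). Both were called in every alternative in which they were tested. They are 40% of the 5, beside 23.5% of all tested genes called.

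At the cell surface, 14 of 15 receptors were tested, 1 called higher (Fzd4, 1.04 ± 0.14) and 7 lower in vSSC, with a median difference of -0.43, counts that became 1 and 4 without lbSSC replicate 3, 1 and 2 without both vSSC replicates 1 and 3 and 1 and 0 with the ribosomal covariate. The co-receptor Lrp5 averaged 7.44 ± 1.71 FPKM in vSSC and 18.2 ± 4.85 FPKM in lbSSC (SD, n = 4 each; -1.17 ± 0.20, adjusted p = 0.00189). Of 7 tested secreted antagonists 6 were lower, led by Sfrp1 (-3.35 ± 0.15), and none was higher, with 3 lower under the ribosomal covariate. Of 5 tested ligands Wnt11 was higher (0.72 ± 0.21) and Wnt9a lower (-0.61 ± 0.17), and neither was called without lbSSC replicate 3 or without both vSSC replicates 1 and 3. Of 3 tested R-spondins and Lgr receptors, which strengthen Wnt responses, Rspo3 (1.58 ± 0.16) and Lgr4 (0.64 ± 0.11) were higher. The shares called were 57.1% of the receptors, 85.7% of the antagonists, 40% of the ligands and 66.7% of the R-spondins and Lgr receptors. Of all tested genes, 23.5% were called.

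**Figure D5:**
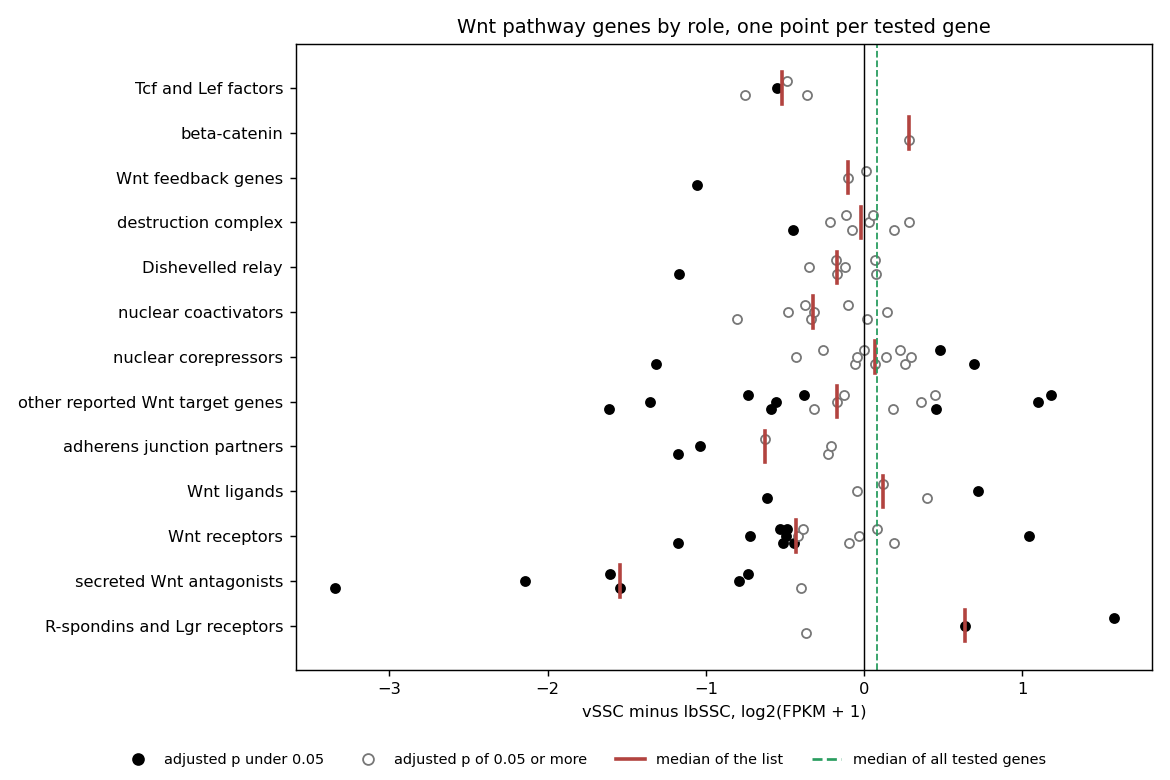
Difference vSSC minus lbSSC, log2(FPKM + 1), of each tested Wnt pathway gene by role; filled points have a limma adjusted p under 0.05, red bars are list medians and the dashed line the median of all tested genes (0.08). List medians run from -1.54 for secreted antagonists to 0.64 for R-spondins and Lgr receptors.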

How the data were processed

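Values for 8 libraries were taken from 1 table. Per the labels' protocols, RNA was purified on columns and turned into libraries by SMART-Seq v4 followed by Nextera XT, chemistry that does not mark strand. The submitters' processing notes name the genome build GRCm38 and the tools STAR 2.5.2, Cufflinks 2.1.1 and bcl2fastq 2.19; their settings are not given in the sources. Values were used in FPKM for protein-coding genes, as deposited by the authors. Because FPKM is relative to all mapped fragments, more RNA of abundant genes lowers the rest. Absolute depth is not known, and precision rests on the replicates.

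From these, log2(FPKM + 1) was computed in R 4.3.3, and genes with at least 1 FPKM in at least 4 libraries were tested with limma 3.58.1 (variance trend, Benjamini-Hochberg adjusted p under 0.05). The site model had no covariate, the sex model had site, and an interaction was fitted. The procedure was tested on simulated data. Named genes are all members, up to 4 called genes with the largest difference per pathway list, some given only in counts, and the 3 nearest profiles of each called member, gene models left out. Msx2 is named in addition, for how it passed the filter. Alternatives changed the pseudocount, filter, scaling, variance trend, weights, covariates and libraries. Members, lists and alternatives were chosen with earlier results of these data known. The length trend was removed in an alternative added after the data were seen. The listed start of each gene was raised by 1 to count from 1. Windows are the RefSeq 250 bases before each start.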

Additional observations from a re-analysis of the deposited data

Results flagged for a closer look

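In vSSC, Tcf7 in replicate 1 stood apart from the other libraries of its group: 2.98 FPKM against 4.25 to 4.43 FPKM, a gap of 0.876 of the group's range, past the 95% critical value of Dixon's test for 4 samples. In lbSSC, Tcf7l2 in replicate 1 stood apart at 2.58 FPKM against 5.90 to 6.52 FPKM, a gap of 0.843 of the range. Chance alone is set to pass this value in about 5% of groups, and 18 groups were examined.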

How the results depend on the processing

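Among the members and the pathway genes recomputed under each alternative, no gene called in the analysis as reported changed sign. Of the members without a call, Lef1, Tcf7l1, Tcf7l2, Axin2 and Nkd1 had the other sign in at least 1. With the ribosomal share as covariate, 0 members and 623 genes were called; without both vSSC replicates 1 and 3, 1 member (Apcdd1) and 1095 genes. With 1 library left out, between 1 and 3 members and between 1534 genes (without lbSSC replicate 3) and 2991 genes (without vSSC replicate 4) were called, with 1673, 1646 and 1589 genes without vSSC replicate 1, vSSC replicate 3 and lbSSC replicate 4. Apcdd1 was called in all of these fits with a library left out, and Tcf7 in 5 of the 8. With the length trend removed, 3 members were called, Ctnnb1 being the added one. Of all calls, 60.9% were higher in vSSC; this became 51.9% by median-of-ratios scaling, 42.4% by rescaling to one sum and 49.4% by quantile normalization; rescaling shifted the median of all genes to -0.04, and Tcf7 and Apcdd1 were called under each.

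Replicate numbers do not pair the samples by the labels, and deviations of same-numbered libraries correlated at 0.26, -0.09, -0.06 and 0.44, so not every library matched its own number. With the replicate block, 3194 genes and 3 members were called, Tcf7l2 being the added one (-0.75, adjusted p = 0.0239). FPKM gives no fragment counts, so what depth limits could not be computed; Nkd2 is the member at lowest level, and with no filter its difference was -0.11 (limma adjusted p = 0.294).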
